A study of Mus musculus with 20 samples.

Results

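The 10 genes described here code for integrin subunits and for proteins that couple integrins to the actin cytoskeleton in focal adhesions. They were taken from a list of symbols set with earlier results of these data known, and all 10 were among the 14299 genes of the count table. They are the alpha subunits Itgav, Itga3, Itga5, Itga6 and Itga7, the beta subunits Itgb1 and Itgb5, and the linkers Tln1, Vcl and Ilk. Each was followed across control and E2-treated cells of both populations that the study drew from its clustering.

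Integrins are receptors made of 1 alpha and 1 beta chain, which hold cells to the matrix outside and signal in both directions across the membrane. Itgb1 pairs with Itga3, Itga5, Itga6, Itga7 and Itgav, whereas Itgb5 pairs with Itgav. In epithelia, receptors with the alpha 3, 6 or 7 chain bind laminin of the basement membrane, the receptor of Itga5 binds fibronectin, and receptors with Itgav bind fibronectin, vitronectin and related ligands. Talin (Tln1) binds the tail of the beta chain, vinculin (Vcl) strengthens the link from talin to actin, and integrin-linked kinase (Ilk) is a scaffold at the same site.

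Ovarian surface epithelium (OSE) is a sheet of cells around the ovary, and E2 stands for the estrogen estradiol. Primary mouse OSE cultures spent 48 hours in hormone-free medium and then 15 days with 100 nM E2 or with the ethanol vehicle at a final 0.0002%, and single cells were then captured on 1 Fluidigm C1 chip. Each chip column gave 1 library, with control cells in columns 1 to 10 and E2-treated cells in columns 11 to 20, and the deposited tables hold 329 control cells and 260 E2-treated cells. Control cells entered the chip through 1 inlet and E2-treated cells through the other, so the libraries of a condition are technical samples of the cells loaded there, and a difference between treatments cannot be told apart from a difference between the loaded preparations. How many dishes were behind each is not given in the sources used here. Cluster 1 and the responsive cells are the study's names for the groups that SC3 clustering of imputed expression gave with 2 clusters. The study proposes that cluster 1 is unresponsive to E2. Among its grounds, further clustering did not part control from E2-treated cells there. The responsive cells numbered 203 in 10 control libraries and 218 in 9 E2 libraries, and cluster 1 held 126 control cells and 42 E2-treated cells. Column 13 had no cells, and E2-treated cluster 1 cells were thin, at 1 to 9 per library, so that 39 of them in 7 libraries entered the sums.

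For each library, the estimated counts of its responsive and of its cluster 1 cells were added up, and levels are CPM (counts scaled to the same library total) after 1 normalization over all 36 sums. The sums held 2136904 to 3904027 reads for responsive cells, 712198 to 2224038 for control cluster 1 cells and 233995 to 771505 for E2-treated cluster 1 cells. Reads per cell had a median of 143233 in responsive control cells, 117809 in responsive E2 cells, 112126 in control cluster 1 cells and 87632 in E2-treated cluster 1 cells, where the median mitochondrial share was also higher, at 3.55% against 2.08% to 2.53%. Of 9 OSE markers, 8 were analysed and had reads in every group, with median summed levels of 4455 to 5415 CPM per library. Fibroblast markers summed to a median of 2038 and 1959 CPM in responsive control and E2 cells and to 3681 and 3624 CPM in cluster 1. Endothelial markers had group medians of 435 to 580 CPM, nearly all Pecam1, leukocyte markers 15.6 to 90.1 CPM, and the granulosa marker Inha 17.1 to 54.4 CPM. Smooth muscle markers had group medians of 0 to 10.3 CPM, but summed to 1338 CPM in the 8 cells of control column 6 of cluster 1. Of the 7 markers on that list, 4 were in the count table and only 2 had reads in control cluster 1 cells. Column 15 of the E2 libraries stood apart in both clusters, with fibroblast markers at 4639 CPM in responsive cells, where the next E2 library had 2128 CPM, and at 10413 CPM in its 3 cluster 1 cells.

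The alpha subunit genes lie on mouse build GRCm38 at chr2:83724397-83806916 (Itgav), chr11:95044474-95076801 (Itga3), chr15:103344286-103366763 (Itga5), chr2:71745616-71858416 (Itga6) and chr10:128933818-128958282 (Itga7). The beta subunit genes lie at chr8:128685654-128733200 (Itgb1) and chr16:33829665-33949338 (Itgb5). The linkers lie at chr4:43531519-43562691 (Tln1), chr14:20929398-21033676 (Vcl) and chr7:105736592-105742925 (Ilk). Exons of the linkers overlap exons of genes on the other strand. Ilk shares 2106 exonic bases with Taf10 and 355 with Rrp8, Vcl shares 2090 with Ap3m1, and Tln1 shares 360 with Creb3. Whether the counting used strand is not given in the sources used here, so the linkers' levels are uncertain to that extent.

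Estrogen receptors bind DNA at a palindrome, the estrogen response element, whose core reads GGTCANNNTGACC. In RefSeq promoter sequences of GRCm38.p6, which matched 8 of the 10 members (all but Itga6 and Itga7), the 250 bases before the start of transcription held this core in 0 of 8 members, and in 18 of 27025 genes (0.0666%). A single arm of the palindrome, GGTCA or TGACC on either strand, was present in 3 of 8 members (Itga3, Itgb5 and Tln1) and in 38.4% of all genes. The promoters of Itgav and Tln1 are shown because these genes had reads in most cells of both treatments and 1 of them holds an arm and the other does not. The RefSeq start of Tln1 lies inside the span given above, which ends at 43562691, so part of its window falls within that span. The Itgav window is chr2:83724147-83724396 on the plus strand and the Tln1 window chr4:43562584-43562833 on the minus strand. Both read 5′ to 3′, with the arm in capitals at position -246 of Tln1, counted back from the base before the start.
Itgav: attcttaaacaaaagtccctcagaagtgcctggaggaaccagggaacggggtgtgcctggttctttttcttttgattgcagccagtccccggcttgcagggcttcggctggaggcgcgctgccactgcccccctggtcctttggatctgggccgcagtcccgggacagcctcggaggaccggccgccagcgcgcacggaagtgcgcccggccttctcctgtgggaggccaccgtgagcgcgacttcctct
Tln1: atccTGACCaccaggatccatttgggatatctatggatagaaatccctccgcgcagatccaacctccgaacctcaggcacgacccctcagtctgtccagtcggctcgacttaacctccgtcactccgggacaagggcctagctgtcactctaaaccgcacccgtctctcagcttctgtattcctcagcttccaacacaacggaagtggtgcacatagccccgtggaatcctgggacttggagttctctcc
The letters describe the windows only, and no binding was measured.

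The first comparison asks whether E2 changed these genes in the responsive cells, over 10 control and 9 E2 libraries. None of the 9 members that passed the filter on low counts was called by edgeR (adjusted p below 0.05 and a log2 fold change beyond 0.5 in either direction), where 1.37% of 10265 genes tested were. The members nearest to a call were lower with E2 for the alpha subunits Itgav and Itga7 and higher for Itgb1 and Ilk. These 4 of 9, 2 lower and 2 higher, had an unadjusted p below 0.05, as 9.89% of all genes tested did (4.34% lower and 5.55% higher), and DESeq2 and limma-voom also called 0 members and put 4 below that unadjusted limit. Of the 9 log2 fold changes, 4 were above 0 and 5 below, with a median of -0.25 where the median of all genes was 0.02. Among all genes tested, 4928 of 10265 were below 0. The study had named Itga7, Itgav and Tln1 as decreased in E2-treated cells of these data, and the members were chosen with earlier results known. The count and median of the members are therefore not independent of that choice. Itga5 did not pass the filter.

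**Figure D1:**
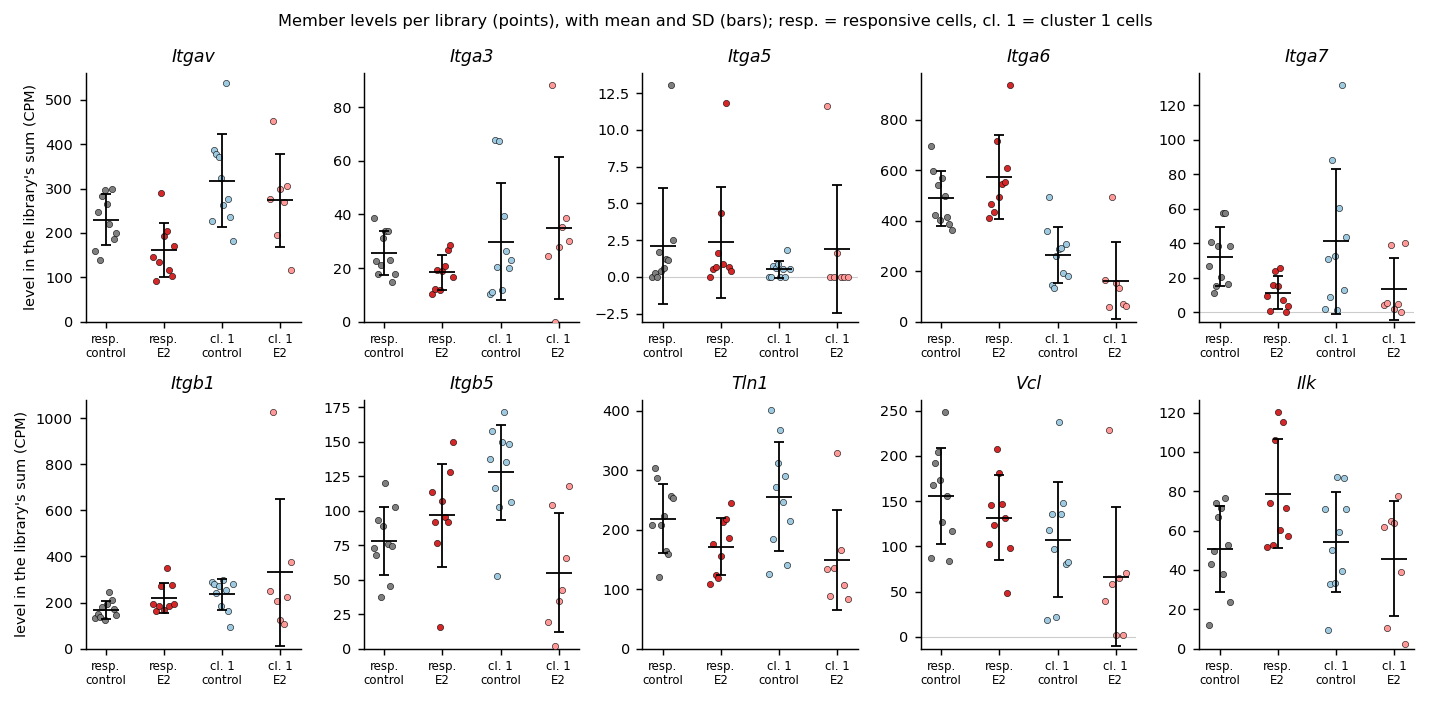
Level of each member in CPM (vertical axes, linear) in responsive and cluster 1 cells of control and E2 libraries; each point is the sum over 1 library, the wide bar is the mean and the capped bar the SD. In responsive cells the E2 libraries of Itga7 lie low and those of Itgb1 and Ilk high, each with overlap of the control libraries.

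Itgav, whose chain pairs with either beta subunit here, had levels in responsive control libraries of 139.8 CPM at the lowest, 234 at the median and 299 at the highest. In E2 libraries the lowest was 92.4 CPM, the median 146 and the highest 290.0. The groups overlapped, but 4 of 9 E2 libraries lay below every control library and 8 of 9 below the control median, the exception being column 15. The log2 fold change was -0.52 (SE 0.20, 95% interval -0.93 to -0.12), with an edgeR adjusted p of 0.316. Leaving out 1 library at a time gave -0.67 to -0.45, with edgeR adjusted p-values of 0.0533 to 0.471. The lowest value of both was that without column 15, the library with high fibroblast markers. A sum cannot tell fewer cells with the transcript from fewer transcripts per cell. With each cell thinned to 20000 reads, Itgav had a read in 63.9% ± 9.3 (SD, n = 10) of control cells and 49.1% ± 11.2 (n = 9) of E2 cells, and unthinned shares were 85.5% ± 6.1 and 67.7% ± 9.1. No cell was shallower than 20000 reads. No cell type without these genes was at hand as a background for such shares.

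Itga7, a laminin receptor chain best known from muscle, was carried by few cells. In control libraries it ranged from 10.8 CPM through a median of 32.4 to 57.6, and in E2 libraries from 0 through 9.11 to 25.5. All 9 E2 libraries lay below the control median and 5 of 9 below every control library. The log2 fold change was -1.53 (SE 0.59, interval -2.75 to -0.32, edgeR adjusted p = 0.332), and leaving out 1 library at a time gave -1.78 to -1.36 with adjusted p-values of 0.205 to 0.467. With limma-voom the log2 fold change was -2.43, with an adjusted p of 0.111. Reads of Itga7 came from 47 of 203 control cells and 19 of 218 E2 cells. In 7 of the 8 E2 libraries with reads a single cell gave over 50% of them, and in 3 a single cell gave all. The thinned share of cells with a read was 17.4% ± 8.4 (n = 10) in control and 6.70% ± 5.82 (n = 9) in E2 libraries, and unthinned it was 23.8% ± 9.3 and 8.97% ± 7.88.

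The other alpha subunits tested, Itga3 and Itga6, had intervals that included no change. Itga3 had 25.5 ± 8.2 CPM (SD, n = 10) in control and 18.3 ± 6.4 (n = 9) in E2 libraries. Its log2 fold change was -0.48, with an interval of -1.18 to 0.22. That estimate was near the -0.52 of Itgav, with an SE of 0.34 against 0.20. Of the 9 E2 libraries, 7 lay below the control median and 3 below every control library. The unthinned share of cells with an Itga3 read was 60.9% ± 9.5 in control and 40.8% ± 15.5 in E2 libraries. Thinned, it was 27.4% ± 9.6 and 20.9% ± 10.8. Itga6, the laminin receptor chain of basal epithelial attachment, had 489 ± 109 CPM in control and 574 ± 166 in E2 libraries. Its log2 fold change of 0.22 had an interval of -0.10 to 0.54, so that a log2 fold change of 1 in either direction lay outside it. Itga5 was close to absent, with 136 reads in 41 of 589 cells of all groups (6.96%, exact 95% interval 5.04% to 9.33%, for counting error only). In responsive cells it had 58 reads in control and 60 in E2 libraries, and 1 control and 1 E2 library held most of them.

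Itgb1, the common beta chain, had 122 CPM at the lowest, 161 at the median and 245 at the highest in responsive control libraries, and 162, 192 and 349 in E2 libraries. All 9 E2 libraries lay above the control median and 3 above every control library. The log2 fold change was 0.37 (SE 0.17, interval 0.03 to 0.72, edgeR adjusted p = 0.466). The thinned share of cells with an Itgb1 read was 70.7% ± 13.1 in control and 70.3% ± 10.6 in E2 libraries, a difference far within the spread. Itgb5, the beta chain of a vitronectin receptor, had 77.9 ± 24.8 CPM in control and 96.5 ± 37.4 in E2 libraries. Its log2 fold change was 0.31 (interval -0.26 to 0.87), and the lowest E2 value, 15.5 CPM, was that of column 15, without which the log2 fold change was 0.45 (edgeR adjusted p = 0.448).

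Among the linkers, Ilk ranged from 12.1 CPM through a median of 51.1 to 76.4 in control libraries and from 51.6 through 71.6 to 120.4 in E2 libraries. Every E2 library lay above the control median and 3 above the control range. The log2 fold change was 0.62 (SE 0.28, interval 0.04 to 1.21, edgeR adjusted p = 0.470). Tln1 had 218 ± 58 CPM in control and 172 ± 48 in E2 libraries, a log2 fold change of -0.35 (interval -0.73 to 0.03, adjusted p = 0.574). Vcl had 156 ± 53 CPM in control and 131 ± 47 in E2 libraries, a log2 fold change of -0.25 (interval -0.72 to 0.22). None of the linkers passed the test. For Vcl the thinned share of cells with a read was 62.4% ± 14.3 in control and 48.1% ± 15.5 in E2 libraries. For Tln1 it was 71.4% ± 8.0 and 61.3% ± 12.8. Ilk had thinned shares of 29.6% ± 13.3 and 35.4% ± 11.5, and unthinned 50.3% ± 6.5 and 47.4% ± 9.9.

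**Figure D2:**
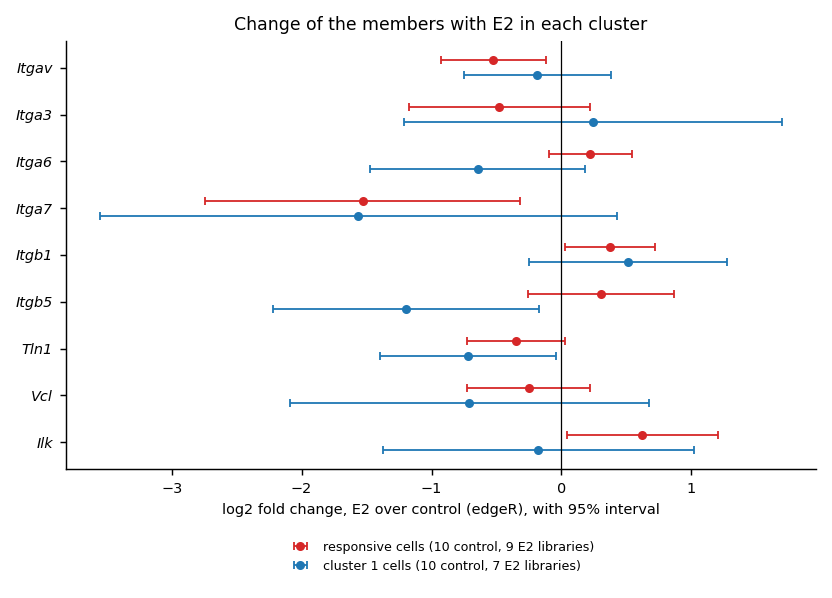
log2 fold change of E2 over control (horizontal axis, edgeR) for the 9 members tested, in responsive cells (red) and cluster 1 cells (blue); points are estimates and bars 95% intervals, unadjusted. The widest intervals are those of Itga7, and the intervals of Itgb5 lie mostly on opposite sides of 0 in the 2 clusters.

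The imputed values, which the authors computed with MAGIC and on which their clustering rested, gave a narrower picture of the same cells. MAGIC replaces each value by a mixture of the values of similar cells. On its log scale, whose base is not given in the sources used here and was taken as 2, Itgav averaged 2.05 ± 0.05 (SD over 10 libraries) in responsive control and 1.65 ± 0.03 (9 libraries) in responsive E2 cells, a difference of -0.41. For Tln1 the difference was -0.33, for Itga7 -0.31, for Vcl -0.27, for Itga3 -0.23, for Ilk 0.13 and for Itga5 0.03. For these 7 of 10 members no imputed library mean of one treatment reached the range of the other, but the same held for 49.2% of all 14299 genes. In cluster 1 it held for 0 of 10 members and for 0.203% of all genes. Since imputed values are shared between cells of different libraries, the libraries are not independent on this scale and no test was made. The sign of the imputed difference was that of the counts in 9 of 9 members in responsive cells and in 6 of 9 in cluster 1.

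**Figure D3:**
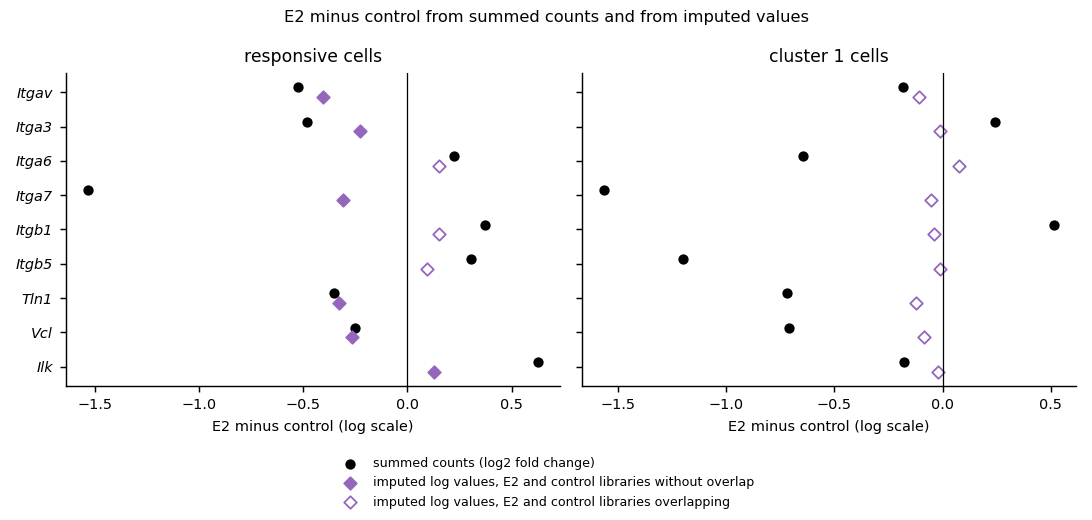
E2 minus control (horizontal axes, log2 scale) for 9 members, from summed counts (black circles, edgeR log2 fold change) and from imputed values (diamonds, difference of library means); filled diamonds mark members whose E2 and control libraries did not overlap. In responsive cells the imputed libraries of Itgav, Itga3, Itga7, Tln1, Vcl and Ilk separate, and in cluster 1 those of no member do.

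The same question was asked of cluster 1, over 10 control and 7 E2 libraries. edgeR called 0 of 9 members, where 0.0839% of 8340 genes tested were called. Itgb5 and Tln1 had an unadjusted p below 0.05, 2 of 9 where 7.46% of all genes had one (3.68% lower and 3.78% higher), and both were lower with E2. DESeq2 and limma-voom also called 0 members, with 1 member each under the unadjusted limit, and with thinned cells edgeR put 0 there. The log2 fold changes were above 0 for 2 members and below 0 for 7, with a median of -0.65 where that of all genes was -0.06. Among all genes tested, 4469 of 8340 were below 0.

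Itgb5 ranged in control cluster 1 libraries from 52.7 CPM through a median of 137 to 172, and in E2 libraries from 2.16 through 42.5 to 118. All 7 E2 libraries lay below the control median and 4 below the control range. The log2 fold change was -1.20 (SE 0.50, interval -2.22 to -0.18, edgeR adjusted p = 0.570). Over all alternatives the adjusted p lay between 0.0848 and 0.729. These E2 sums rested on few cells, and in 7 of 7 a single cell gave over 50% of the Itgb5 reads.

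Tln1 ranged from 125 CPM through 259 to 401 in control cluster 1 libraries and from 82.7 through 134 to 329.6 in E2 libraries, where 3 of 7 lay below the control range. The log2 fold change was -0.72 (SE 0.33, interval -1.40 to -0.04, edgeR adjusted p = 0.648), and without column 17, whose 5 cells gave the highest value, it was -1.05. Itga6 had 264 ± 110 CPM (n = 10) in control and 162 ± 153 (n = 7) in E2 libraries, a log2 fold change of -0.65 (interval -1.47 to 0.18). Without column 16, where 1 cell gave 86.6% of 228 Itga6 reads, it was -1.25, with the lowest adjusted p of the libraries left out in turn, 0.190.

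Itgb1 had 235 ± 66 CPM in control and 331 ± 321 in E2 libraries of cluster 1, a log2 fold change of 0.51 (interval -0.25 to 1.28). That value rested on column 15, a sum of 3 cells at 1028 CPM, and without it the log2 fold change was -0.10. The same library set the sign for Itga3, which went from 0.24 to -0.16, and for Vcl it took the log2 fold change from -0.71 to -1.42. Control column 6, the library with the high sum over smooth muscle markers, had the highest control level of Vcl, at 237 CPM. Without it the log2 fold change of Vcl was -0.49. The part of those markers in the Vcl level was not tested. Itgav, Itga7 and Ilk had log2 fold changes of -0.18, -1.56 and -0.18, with intervals that spanned 0 in each case. The interval of Itga7, -3.56 to 0.43, was wide, so that a difference could not be resolved with these 39 cells.

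Whether E2 acted differently in the clusters was tested as an interaction over all 36 sums. No member was called by edgeR, where 0.184% of 11398 genes were, and by DESeq2 and limma-voom the count was also 0. Itga6 and Itgb5 had an unadjusted p below 0.05, 2 of 9 where 10.9% of all genes had one (7.89% lower and 3.03% higher), and both were below 0. Under the same limit DESeq2 put 1 member and limma-voom 2, and edgeR put 1 with thinned cells, with at least 5 cells per sum or with the labels for 3 clusters. For Itgb5 the interaction, the E2 log2 fold change of cluster 1 minus that of responsive cells, was -1.56 (SE 0.54, interval -2.65 to -0.47, adjusted p = 0.220). For Itga6 the interaction was -0.92 (SE 0.41, interval -1.74 to -0.10, adjusted p = 0.380). Both values should be read beside the median interaction of all genes, -0.19. For the other 7 members the intervals spanned 0, from -0.39 to 0.96 for Itgav, the narrowest, to -2.32 to 2.09 for Itga7. Over the alternatives, the interaction of Itgb5 stayed between -1.93 and -1.36, with adjusted p-values of 0.178 to 0.508. Without the 3 cluster 1 cells of column 15 it was -1.75, and that of Itga6 was -0.74.

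Levels also differed between the clusters. These differences are descriptions with no test, because the cells were clustered on their own expression. With treatment as a covariate, Itga6 had a log2 difference of cluster 1 minus responsive cells of -1.28 (SE 0.22) and was lower in cluster 1 in 17 of 17 libraries that held both. Vcl had a difference of -0.76 (SE 0.33) and was lower in 15 of 17. Itgav was higher in cluster 1, with a difference of 0.59 (SE 0.17) and 13 of 17 libraries, and Itga3 and Itgb1 had differences of 0.52 each and were higher in 12 of 17. Without the 3 cluster 1 cells of column 15 the differences were 0.51 for Itgav, 0.33 for Itga3, 0.25 for Itgb1 and -1.02 for Vcl, so that 1 member in place of 3 was above 0.5 and Vcl passed -1. In all, 3 of 9 members were above 0.5, as 22.9% of 11398 genes were, and 2 of 9 below -0.5, as 29.0% were. Together 5 of 9 were beyond 0.5, against 51.9% of genes, and 1 of 9 was beyond 1, as 24.5% of genes were.

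**Figure D4:**
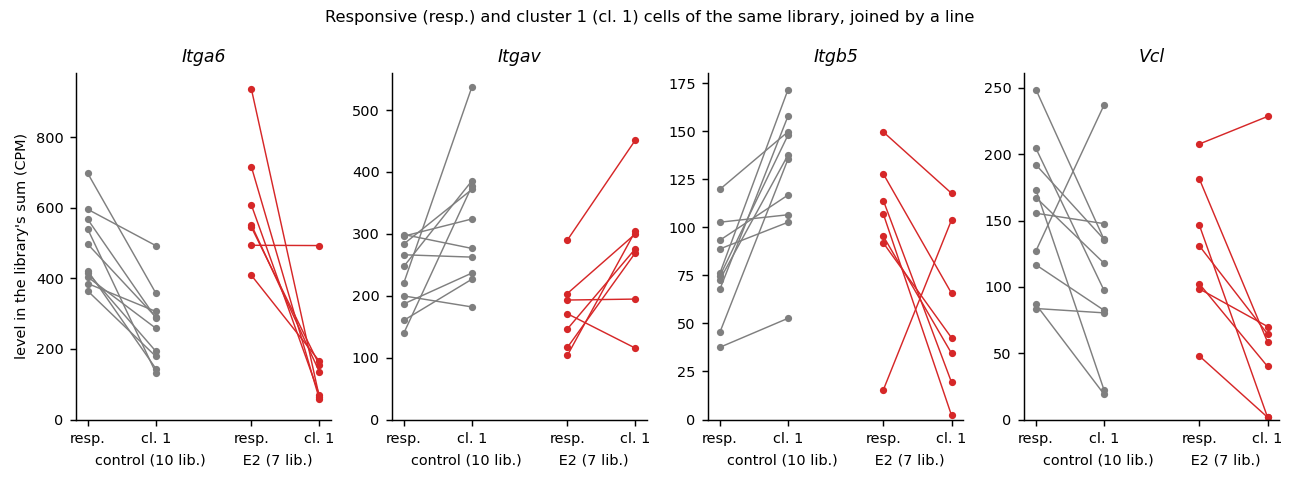
Levels of Itga6, Itgav, Itgb5 and Vcl in CPM (vertical axes, linear) in responsive and cluster 1 cells, with a line for each library that held both; grey lines are 10 control and red lines 7 E2 libraries. The Itga6 lines fall towards cluster 1 in 17 of 17 libraries, while those of Itgb5 climb in 10 of 10 control libraries and in 1 of 7 E2 libraries.

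Itga6 in control libraries had 489 ± 109 CPM in responsive and 264 ± 110 in cluster 1 cells, a ratio of 0.540, and in E2 libraries 574 ± 166 and 162 ± 153 CPM, a ratio of 0.283. With 20000 reads per cell, 94.0% ± 4.3 of responsive control cells and 64.7% ± 14.6 of cluster 1 control cells had an Itga6 read, and unthinned 98.8% ± 2.5 and 80.3% ± 10.7 had one. Of the summed CPM of the 5 alpha subunits in control libraries, not corrected for length, Itga6 made up 62.6% ± 7.4 in responsive and 40.5% ± 13.5 in cluster 1 cells. Itgav made up 29.7% ± 6.3 of that sum in responsive and 48.3% ± 8.9 in cluster 1 cells. In E2 libraries the share of Itga6 was 74.7% ± 6.3 in responsive and 30.8% ± 18.6 in cluster 1 cells.

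Itgb5 showed no common direction between clusters. In control libraries it was higher in cluster 1 in 10 of 10, at 128 ± 35 against 77.9 ± 24.8 CPM. In E2 libraries it was higher in 1 of 7, column 15, at 55.1 ± 43.0 against 96.5 ± 37.4 CPM. Tln1, Itga7 and Ilk had differences of 0.05, 0.32 and -0.27, each smaller than its SE, and those of Tln1 and Itga7 changed sign between alternatives. Vcl in control libraries had 156 ± 53 CPM in responsive and 108 ± 64 in cluster 1 cells.

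Other genes of the adhesion machinery were followed through lists of symbols. Among 25 adaptors and kinases tested in responsive cells, 3 fell with E2 and 0 rose, against a background of 1.37% of genes called. Their median log2 fold change was -0.07. The 3 were Tns1 and Tns2, tensins that tie beta chain tails to actin, and Sorbs3 (vinexin), a partner of vinculin. Sorbs3 had 213 ± 42 CPM in control and 115 ± 36 in E2 libraries, a log2 fold change of -0.89 (SE 0.18, edgeR adjusted p = 0.00690). Tns2 had 102 ± 36 and 38.0 ± 22.5 CPM, a log2 fold change of -1.43 (SE 0.31, adjusted p = 0.0126). Tns1 had 84.3 ± 23.0 and 45.3 ± 12.3 CPM, a log2 fold change of -0.90 (SE 0.22, adjusted p = 0.0324). The Tns1 call was lost in 9 of 19 fits that left out 1 library, with an adjusted p of up to 0.0717 and log2 fold changes of -0.97 to -0.82 over all 19, and when cells were thinned, with a log2 fold change of -0.45. In 1 fit over both clusters all 3 calls were lost, with log2 fold changes of -0.90 for Tns1, -1.43 for Tns2 and -0.89 for Sorbs3 and adjusted p-values of 1.0, 0.732 and 0.732.

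Of 8 membrane partners of integrins tested, 1 fell, the tetraspanin Cd63, with 1235 ± 171 CPM in control and 767 ± 184 in E2 libraries and a log2 fold change of -0.70 (SE 0.12, edgeR adjusted p = 0.00147). This call held in all 7 alternatives and all 19 fits without 1 library. A second tetraspanin, Cd9, was under the unadjusted limit with the other sign, at 54.9 ± 21.1 CPM in control and 123 ± 125 in E2 libraries, and was not called (log2 fold change 1.15, adjusted p = 0.110). Among 14 integrin ligands and 2 further integrin subunits tested in responsive cells none was called, with 1 ligand and 0 subunits at an unadjusted p below 0.05 by edgeR. In cluster 1 and in the interaction, 0 genes of these 4 lists were called by edgeR. At an unadjusted p below 0.05 in cluster 1 there were 3 of 23 adaptors and kinases, 1 of 15 ligands, 0 of 7 membrane partners and 0 of 1 further subunit, where 7.46% of all genes were. In the interaction there were 5 of 25 adaptors and kinases, 4 of 16 ligands, 3 of 8 membrane partners (Cd9, Cd63 and Cd151) and 0 of 4 further subunits, where 10.9% of all genes were. Of the 4 keratins in the OSE marker list, Krt19 rose in responsive cells from 406 ± 80 to 624 ± 87 CPM, a log2 fold change of 0.62 (edgeR adjusted p = 0.00973). The other keratins were below 0 and not called. Their log2 fold changes were -0.30 for Krt7, -0.52 for Krt8 and -0.56 for Krt18, with edgeR adjusted p-values of 0.378, 0.104 and 0.181. The remaining OSE markers were not called either, with -0.98 for Msln (edgeR adjusted p = 0.480), -0.09 for Upk3b, 0.04 for Lrrn4 and 0.24 for Wt1. By edgeR, 5 of 8 OSE markers had an unadjusted p below 0.05, as 9.89% of all genes tested did. Of these, Krt19 was higher and Krt7, Krt8, Krt18 and Msln were lower. The median over the 8 was -0.19.

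Ligands also differed between clusters, again as a description. Fn1 (fibronectin), the ligand of the Itga5 receptor, had 1092 ± 178 CPM in responsive and 110 ± 89 in cluster 1 control cells, and its log2 difference was -3.76 (SE 0.28). The laminin chains tested went both ways. Lama4 had a log2 difference of -2.43 (SE 0.51) and Lama1 one of 2.80 (SE 0.38). Lamc1 had -0.61, Lamb1 -0.46, Lamb2 0.14 and Lama5 0.16. The matrix genes Tnc and Thbs1 had differences of 5.59 (SE 0.94) and 4.69 (SE 0.60), and Col1a2, which is also a fibroblast marker, one of 7.27 (SE 0.38). Fn1, Lama4 and Col1a2 had the same sign in 17 of 17 libraries. The other fibroblast markers had differences of -0.93 for Col1a1, -1.25 for Col3a1, -0.30 for Pdgfra and 0.43 for Dcn. The OSE markers went both ways, with differences of -4.41 for Krt19, -0.81 for Krt8, -0.29 for Krt7, -0.017 for Wt1, 0.23 for Upk3b, 0.91 for Krt18, 0.92 for Lrrn4 and 3.28 for Msln. Of the endothelial markers, Kdr had a difference of -6.19 (SE 0.54) and was lower in cluster 1 in 17 of 17 libraries. Pecam1 and Vwf had differences of -0.21 and -0.25. The part of these marker differences in the integrin levels was not tested. Among adaptors, Lims1 (PINCH), a partner of Ilk, was lower in cluster 1 in 17 of 17 libraries with a difference of -1.18 (SE 0.20). Focal adhesion kinase Ptk2 and its relative Ptk2b had differences of 1.22 (SE 0.40) and -1.74 (SE 0.33), and Ptk2 was higher in 9 of 17 libraries. Without the 3 cluster 1 cells of column 15 the differences were 0.66 for Ptk2, 4.44 for Tnc, 4.11 for Thbs1, 0.14 for Dcn and -0.84 for Pdgfra.

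Finally, the genes with the most similar levels were found for Itgb1, Itgav and Itga6 by Pearson's r of log2(CPM + 1) over the 36 sums. The sums share libraries, depth and the contrast of the clusters, so r is a description. Nearest to Itgb1 were Bcap31 (0.74), Mdh2 (0.72) and Gpm6a (0.72), and over the 19 responsive sums alone they had r of 0.54, 0.73 and 0.60. Nearest to Itgav were Akr1b8 (0.67), Igfbp3 (0.66) and Myof (0.66), with r of 0.32, 0.58 and 0.38 in responsive sums. Nearest to Itga6 were Zfp975 (0.84), Adgrl3 (0.84) and Atp5o (0.83). Within responsive sums only Zfp975 of these 3 kept a high r with Itga6, at 0.72, whereas Adgrl3 had 0.07 and Atp5o 0.18.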

How the data were processed

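The authors made the deposited estimated counts with kallisto 0.44.0 (build GRCm38 per the labels), summed to genes with tximport and left unnormalized, per the methods of the study, after their filters on cells and genes. Capture sites were scored by eye and every cell kept is recorded as 1 cell, so no doublet caller was run. The authors also deposited log values, scaled by scran size factors and imputed with MAGIC. The base of these deposited values is not given in the sources used here, and they were treated as log2. The deposited metadata gave percent mitochondrial reads and SC3 labels.

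Counts were summed per library and cluster for sums of at least 3 cells, which left out 3 cells, and rounded to whole numbers. Reads carry no molecular identifiers, so intervals on shares cover counting error only. The quasi-likelihood test of edgeR 4.0.16 (R 4.3.3), after TMM scaling and filterByExpr, had treatment, or treatment, cluster and their interaction, as terms. Benjamini-Hochberg adjustment ran over all genes tested. Calls needed both an adjusted p under 0.05 and a log2 fold change beyond 0.5 in either direction. The SE is the absolute log2 fold change over the square root of F. P-values measure the spread between libraries loaded through 1 inlet per treatment.

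Alternatives were DESeq2 1.42.0, limma-voom (limma 3.58.1), no filter, 20000 reads per cell, at least 5 cells per sum, labels for 3 clusters (which kept 165 of 168 cluster 1 cells), 1 fit over both clusters, the library as a block, and each library left out. Scripts were tested on simulated data. Symbols matched 14135 of 14299 Ensembl identifiers.

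The members and lists were chosen with earlier results of these data known. Named are all members, any list gene called for E2 or the interaction, the 3 list genes with the largest difference in each direction between clusters (of which the text gives a selection), and the 3 genes nearest to Itgb1, Itgav and Itga6. Some further genes of the same lists are given beside these, to show genes that went another way. The split of alpha subunit reads and Itgal were added after the values were seen.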

Additional observations from a re-analysis of the deposited data

Results flagged for a closer look

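In 8 of 40 groups of libraries (10 members in 2 clusters and 2 treatments) 1 library stood far from the rest by Dixon's ratio. Its limits are passed by about 1 group in 20 where values are normal and independent. These groups share libraries and some rest on few reads, so the 8 of 40 cannot be set against that rate. Of the 8 groups flagged, 4 concern Itga5, whose levels rest on few reads. Column 9 had 13.1 CPM of Itga5 in responsive control cells, where 1 cell gave 94.3% of 35 reads, and 1.83 CPM in control cluster 1 cells, from 2 reads. Column 18 had 11.8 CPM in responsive E2 cells, with 80.6% of 36 reads from 1 cell, and column 11 had 11.6 CPM in E2-treated cluster 1 cells, from 9 reads of 1 cell. The others were all in E2-treated cluster 1 cells, where a library has few cells. Column 16 had 493.0 CPM of Itga6 over 5 cells, the next library 165 CPM. Column 15, a sum of 3 cells, had 1028 CPM of Itgb1, where the next library had 378 CPM, and 229 CPM of Vcl, where the next had 70.1 CPM. Single cells gave 58.1% of those Itgb1 reads and 64.1% of those Vcl reads. Column 17 had 329.6 CPM of Tln1 over 5 cells, 62.2% of the reads from 1 cell, and the next library had 166 CPM.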

How the results depend on the processing

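No member was called in either E2 comparison or in the interaction under any alternative run, nor in the E2 fits that left out 1 library. The number of all genes called was less stable. For E2 in responsive cells 141 genes were called, 234 with DESeq2 and 24 in 1 fit over both clusters, and 107 to 141 without 1 library. In cluster 1 the count was 7, and it was 48 with DESeq2, 1 without the filter, 276 in 1 fit over both clusters and 1 to 9 without 1 library. The interaction gave 21 calls, 96 with DESeq2, 13 with limma-voom, 5 with thinned cells and 0 with the library as a replicate block (892 at an unadjusted p below 0.05). The number of genes beyond 1 on the log2 scale between clusters was 2794, and 1280 with thinned cells. Signs turned only where members were near 0 or rested on few cells. In cluster 1, Itga3 was -0.25 with limma-voom and -0.16 with at least 5 cells per sum, Itgb1 was -0.035 and -0.10, and the ranges without 1 library were -0.16 to 0.48 for Itga3, -0.10 to 0.67 for Itgb1 and -0.34 to 0.026 for Ilk. The interaction of Itga7 was 0.10 with DESeq2, 0.42 with limma-voom and 0.016 with at least 5 cells, and that of Itgb1 was -0.43 with limma-voom, -0.50 with at least 5 cells and -0.31 with the replicate block. Column 15 is the library that the limit of 5 cells removes from cluster 1. The cause of the other changes was not tested. The median of all genes moved from -0.06 to -0.38 with limma-voom and -0.23 without the filter in cluster 1, and from -0.19 to -0.35 with limma-voom, -0.53 with the block and -0.01 with DESeq2 in the interaction. Between clusters it moved from -0.06 to -0.30 with limma-voom and -0.41 with the block. No paired analysis of treatments was possible, because each chip column held 1 treatment and no pairing of control with E2 cultures is given in the sources used here. Sums of both clusters from 1 library had residual correlations of -0.018 to 0.095, with 0 of 17 above 0.1, and the block was run for the interaction and the cluster difference only. Of the 5 list genes called in responsive cells, Tns1, Tns2, Sorbs3 and Krt19 lost the call in 1 fit over both clusters.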

Other observations

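Itgal, the alpha chain of a leukocyte integrin, was among the genes that failed the filter on low counts in both E2 fits and was singled out after its values were seen. It had 275 reads in 8 of 10 responsive control libraries (0 to 59 per library, median 35) and 11 reads in 4 of 9 responsive E2 libraries (0 to 6 per library). In cluster 1 it had 164 reads in 8 of 10 control libraries and 0 in 7 E2 libraries. Without the filter the log2 fold change in responsive cells was -4.34, with an edgeR adjusted p of 0.0582, and in 1 fit over both clusters it was -4.27, with an adjusted p of 0.215. In cluster 1, against E2 libraries all at 0, the edgeR adjusted p was 0.210 without the filter and 0.0447 in 1 fit over both clusters, and the interaction was not called (adjusted p = 0.701). The leukocyte gene Ptprc had 1.45 ± 1.78 CPM (SD, n = 10) in responsive control and 2.99 ± 3.38 (n = 9) in responsive E2 libraries. The leukocyte markers together had medians of 90.1 CPM in responsive control and 78.8 CPM in responsive E2 libraries. Of these markers, Cd68 and Cd14 were tested there, with log2 fold changes of -0.22 and -0.35, and neither was called. Whether Itgal reads came from OSE cells was not tested.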
